A study of Mus musculus with 6 samples.

Results

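Histone genes are the genes of the proteins that package DNA into nucleosomes. The genes described here were the 36 protein-coding genes, of 21269 genes in the expression table, whose symbol starts with Hist1h, Hist2h, Hist3h, Hist4h, H1f, H2af, H2ac, H2bc, H3c, H3f or H4c. By their symbols, 29 were replication-dependent genes, 5 were variant genes and 2 were testis-specific genes of the histone cluster. RNA was sequenced from HL-1 cells, a contractile line derived from mouse atrial cardiomyocytes, with 3 libraries of cells given LNA Control and 3 of cells given LNA Malat1. Both are locked nucleic acid gapmers, short antisense oligonucleotides that direct the cleavage of a matching RNA. LNA Control has no stated target, and LNA Malat1 is directed against the nuclear long noncoding RNA Malat1. Both groups were grown in Claycomb medium with norepinephrine and transfected with RNAimax at 50 nM, 24 hours after seeding, and both were collected 48 hours later. All libraries thus came from 1 cell line and 1 time point, and nothing in the labels says whether the replicates were separate cultures, so the p-values measure only the spread between these libraries.

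Replication-dependent histone genes supply the new nucleosomes that are needed while DNA is copied, and their mRNAs are made mostly in S phase. These mRNAs end in a conserved stem-loop instead of a poly(A) tail. The stem-loop is bound by the protein SLBP, and the U7 small nuclear ribonucleoprotein directs the cut that follows it. Variant histone genes, such as those of H3.3 and H1.0, are expressed through the cell cycle and also in cells that no longer divide, and their mRNAs carry a poly(A) tail. In the heart, most cardiomyocytes stop dividing soon after birth, whereas HL-1 cells divide in culture.

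The stem-loop is shown first because it differs between the classes, in the 5 replication-dependent genes that passed the test described below and in 3 more with high counts from the families of H2A and H4. The 16 bases of the stem-loop are in capitals, with 5 bases on each side, on the coding strand and 5′ to 3′.
H1f2: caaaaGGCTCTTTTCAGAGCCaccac
H1f3: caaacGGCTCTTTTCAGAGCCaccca
H2bc3: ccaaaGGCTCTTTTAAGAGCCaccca
H2bc9: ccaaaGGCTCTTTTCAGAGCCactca
H3c6: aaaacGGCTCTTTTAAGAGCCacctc
H2ac20: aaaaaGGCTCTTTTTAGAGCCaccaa
H4c4: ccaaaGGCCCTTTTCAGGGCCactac
H4c14: ctaacGGCCCTTTTTAGGGCCaacca
In mm10 coordinates the capitals lie at chr13:23739512-23739527, chr13:23555787-23555802, chr13:23747203-23747218 and chr13:23581950-23581965 on the plus strand and at chr13:23542928-23542943, chr13:23561903-23561918, chr3:96220418-96220433 and chr3:96262939-96262954 on the minus strand. Each lies after the stop codon, in the 3′ untranslated part of the only exon of its gene.

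In the GENCODE annotation, 21 of the 29 replication-dependent genes (72.4%) had such a stem-loop after the stop codon, against 0 of the 5 variant genes and 27 of 14231 protein-coding genes of the table (0.19%). These 27 were 22 of the 36 histone genes and 5 others, H2ax, H2aw, H2bu2, H4f16 and Syncrip, which are named here after their values were seen. The stem-loop began with GGCTC and ended with GAGCC in 18 of the 22 histone genes, and with GGCCC and GGGCC in the 4 genes of histone H4. The stem-loop began 21 to 46 bases after the stop codon (median 31). From its end, 11 to 4884 bases (median 377) were annotated to the end of the transcript, and in 5 genes at most 60. Of the 8 replication-dependent genes without it, H2ac15, H2ac21 and H2bc18 have no base annotated after the stop codon, and H2ac10 has 1. The search could not find the stem-loop in any of these genes. A poly(A) signal, AATAAA or ATTAAA in the last 50 bases of a coding transcript, was present in 6 of the 29 replication-dependent genes (20.7%), in all 5 variant genes and in 85.3% of the protein-coding genes.

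The promoters of 32 of the 36 genes were matched in RefSeq (GRCm38.p6, which has the coordinates of mm10), with 250 bases before and 50 after the transcription start. These were 33 promoters, since H2bc6 has a second start, and the counts are of promoters and not of genes. Only 1 of the promoters of H2bc6 holds the octamer described below. A set of 4 short motifs was searched on both strands, and no matches of different motifs overlapped in the promoters of histone genes. The CCAAT box (CCAAT) was present in 25 of 26 replication-dependent promoters (96.2%) and in 37.4% of all promoters. The core of the TATA box (TATAAA) was present in 53.8% and 13.6%, respectively. The H1 box (AAACACA) was present in 3 of 4 replication-dependent H1 promoters and in 7.2% of all promoters. The octamer (ATTTGCAT) was present in 4 of 8 H2A and 4 of 6 H2B promoters and in 1.7% of all promoters. The promoters of H2ac8 and H2bc8 cover nearly the same bases on opposite strands, so their shared octamer counts in both families. Of the 5 variant promoters, 3 held the CCAAT box, 1 the core of the TATA box, 1 the H1 box and 1 the octamer. The H1 box was also present in 1 of 8 H2A promoters and in the 2 testis-specific promoters. These matches describe the sequence and were not tested as binding sites.

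Printed with the motifs in capitals are the promoters of the linker histone genes H1f2 (chr13:23738557-23738856, plus strand) and H1f3 (chr13:23554782-23555081, plus strand), which were both lower in LNA Malat1, and of H2ac20 (chr3:96220831-96221130, minus strand), which covers the stretch it shares with H2bc21.
H1f2: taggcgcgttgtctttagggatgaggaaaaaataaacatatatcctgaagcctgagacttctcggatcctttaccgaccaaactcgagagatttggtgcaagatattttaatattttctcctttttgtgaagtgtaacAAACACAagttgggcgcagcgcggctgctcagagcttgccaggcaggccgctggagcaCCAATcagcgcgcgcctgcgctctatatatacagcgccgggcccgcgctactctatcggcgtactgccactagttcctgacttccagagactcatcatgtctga
H1f3: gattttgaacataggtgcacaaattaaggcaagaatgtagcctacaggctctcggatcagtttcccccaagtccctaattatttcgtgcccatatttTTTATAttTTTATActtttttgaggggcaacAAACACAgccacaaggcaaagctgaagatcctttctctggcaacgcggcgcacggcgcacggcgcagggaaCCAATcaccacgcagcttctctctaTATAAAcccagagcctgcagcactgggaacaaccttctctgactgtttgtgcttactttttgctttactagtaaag
H2ac20: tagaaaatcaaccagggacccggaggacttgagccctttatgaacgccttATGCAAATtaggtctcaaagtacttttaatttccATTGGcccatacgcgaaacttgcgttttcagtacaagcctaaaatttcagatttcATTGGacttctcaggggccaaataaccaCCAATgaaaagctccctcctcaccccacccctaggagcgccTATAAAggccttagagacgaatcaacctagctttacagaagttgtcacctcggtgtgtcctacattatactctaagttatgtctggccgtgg
The RefSeq start of H1f3 lies inside the longer span that the table gives for the gene. Both H1 promoters hold the H1 box followed by a CCAAT box. The H2ac20 promoter holds the octamer, several CCAAT boxes and the core of the TATA box.

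Malat1, the target of the gapmer (chr19:5795690-5802672, minus strand), had normalized counts of 5051, 5197 and 4369 in the control libraries and of 2833, 2792 and 2732 after LNA Malat1. It fell to 57.2% of the control level (log2 fold change −0.80 ± 0.07 SE, limma adjusted p = 7.5e-06). The libraries held 4511607 to 5594681 reads in genes, as estimated from the table, and their normalized totals were 4758777 to 4921406. LNA Malat1 replicate 1 differed from replicate 3 by less than the sampling noise (chi-square of 0.949 per gene), so both were counted as 1 sample in means given with an SD (n = 2). The tests and the percentages of the control level used all 3 libraries of each group. Replicate 1 also differed little from replicate 2 (1.01 per gene), whereas the pairs of LNA Control libraries differed by 1.768 to 4.178. The cardiomyocyte transcription factors Nkx2-5 (187 to 211) and Gata4 (866 to 923 and 770 to 788) had high counts in all libraries. So did the cardiomyocyte genes Tnnt2 (647 to 663 and 710 to 746), Actc1 (409 to 475) and Ryr2 (2393 to 2706 and 2237 to 2387). The atrial and cardiac marker genes Myl7 (18 to 32), Myl4 (30 to 39 and 45 to 49) and Myh6 (0 to 7) were low. The 2 ranges of Gata4, Tnnt2, Ryr2 and Myl4 are those of LNA Control and LNA Malat1, in this order, and did not overlap. Of the other lineages, the fibroblast collagen genes Col1a1 and Col3a1 were abundant, Col1a2 was at 0 or 1, and the 5 fibroblast genes together were at 4683 to 4817 in LNA Malat1 and 5304 to 5911 in LNA Control. The 2 macrophage genes together were at 54 to 81 in LNA Malat1 and 32 to 36 in LNA Control, and the endothelial gene Pecam1 was at 1 to 17. Of the smooth muscle genes, Acta2 was at 1074 to 1250, Tagln at 295 to 348 and Myh11 at 8 to 22. Cnn1 was at 106 to 116 in LNA Control and 148 to 149 in LNA Malat1.

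The comparison asks whether histone mRNAs differed after Malat1 was silenced. Most histone genes had slightly lower values in LNA Malat1, and none of those tested differed by 1.5-fold. Of the 28 histone genes with a mean of at least 5 normalized counts, 24 had a log2 fold change below 0, against 47.2% of the 15650 genes tested. The median log2 fold change was −0.19 for the histone genes and 0.02 for all genes. None of the 28 was called, that is, changed at least 1.5-fold at a limma adjusted p of at most 0.05, against 10.9% of all genes (2.92% lower, the rest higher), and 9 of the 28 had an unadjusted p of at most 0.05, against 39.8% of all genes. Without the minimum on the fold change, 6 histone genes were lower in LNA Malat1, against 14.0% of all genes, and 0 were higher, against 14.3%. In 11 of the 28 all LNA Malat1 libraries lay below all LNA Control libraries (20.8% of all genes), and in 0 all lay above (20.5%). Among the 12320 protein-coding genes tested, 53.5% had a log2 fold change below 0 (median −0.02), and 2145 were lower and 1609 higher at the adjusted p. In 3127 of these 12320 all LNA Malat1 libraries lay below all LNA Control libraries, and in 2332 all lay above. In these bulk libraries, fewer cells of a type and less RNA per cell cannot be told apart.

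The 6 genes were the replication-dependent H1f2, H1f3, H2bc3, H2bc9 and H3c6 and the variant H1f0. The number that passed depended on single libraries: it was 2 without LNA Control replicate 2, 3 without any one of the LNA Malat1 libraries, 5 without LNA Control replicate 1 and 7 without LNA Control replicate 3. Of these 7, only 4 were among the 6 genes: H1f4, H2ac20 and H3f3b came in, and H2bc9 and H3c6 were lost. With replicates 1 and 3 of LNA Malat1 merged the number was 4, since H2bc9 (adjusted p = 0.072) and H3c6 (0.095) were lost. H1f0 and H1f2 were among the genes in each of these fits. Of the 15 other settings, H1f0 and H1f2 passed in 15, H1f3 in 13, H2bc3 in 12, H3c6 in 7 and H2bc9 in 6. Log2 fold changes varied with the level of a gene over the whole table, with a median of 0.31 for means of 5 to below 50, 0.07 for 50 to below 100, −0.04 for 100 to below 500 and −0.05 above.

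**Figure D1:**
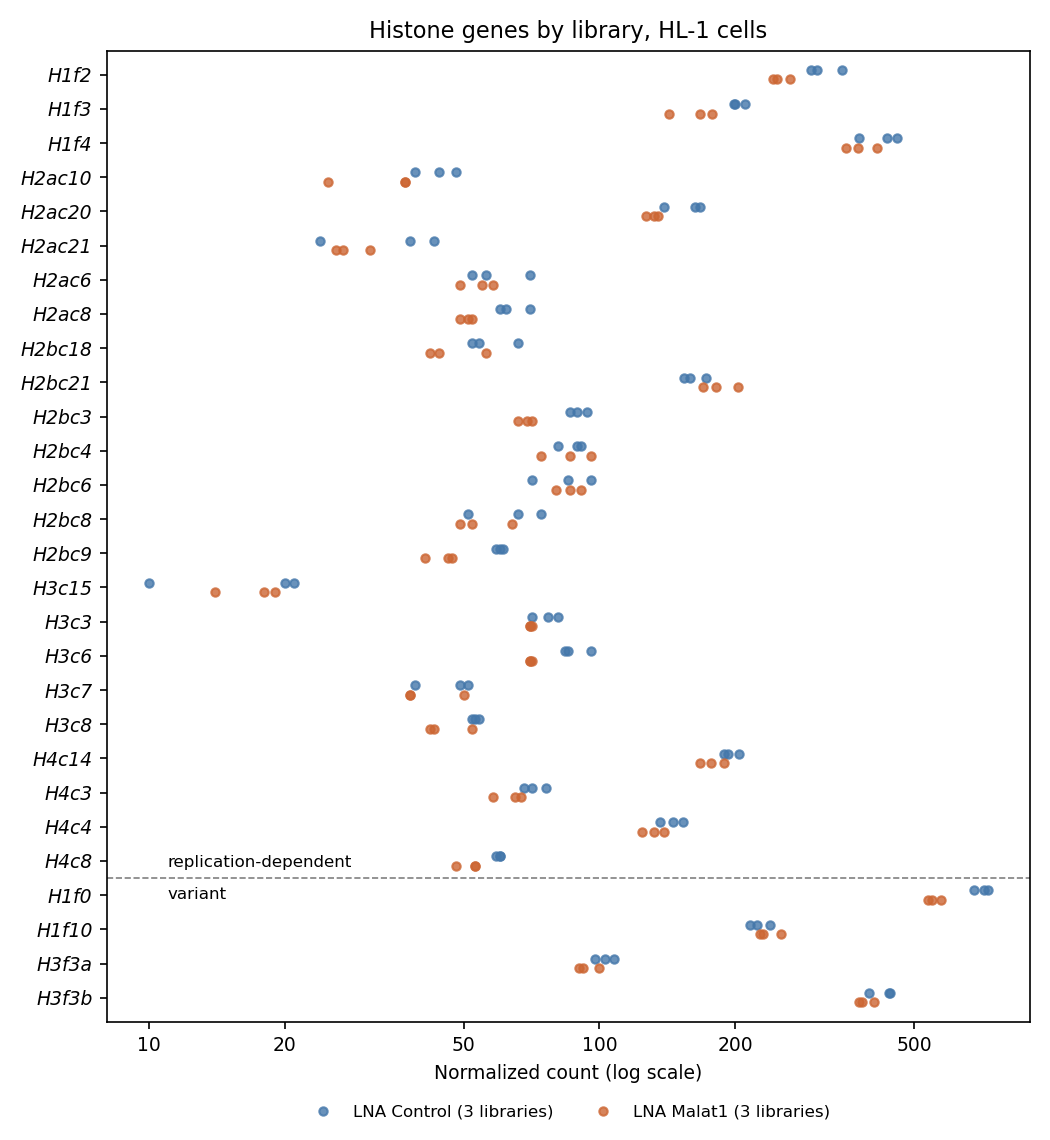
Normalized count (log scale) of the 28 histone genes with a mean of at least 5, with 1 point per library and the replication-dependent genes above the dashed line. The LNA Malat1 points of H1f0 (536 to 572) and H1f2 (243 to 265) lie below the LNA Control points (680 to 728 and 295 to 345), whereas those of H1f10 (227 to 253 and 216 to 239) overlap.

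Linker histones of the H1 family bind the DNA that enters and leaves the nucleosome and compact the chromatin fibre. The replication-dependent H1f2 (chr13:23738808-23740367), which encodes H1.2, had normalized counts of 304, 345 and 295 with LNA Control and 248, 265 and 243 with LNA Malat1. The groups did not overlap, and H1f2 fell: its mean was 314.7 ± 26.7 (SD, n = 3) for LNA Control and 255.2 ± 13.8 (SD, n = 2) for LNA Malat1 (a change of −0.32 ± 0.07 SE on the log2 scale, limma adjusted p = 0.0059, over all 3 LNA Malat1 libraries). With these replicates 1 and 3 merged the change was −0.30 (adjusted p = 0.034). H1f3 (chr13:23553262-23560686), which encodes H1.3, had 200, 210 and 199 with LNA Control and 178, 167 and 143 with LNA Malat1. Again no LNA Malat1 library reached a control library, and the log2 fold change was also −0.32 (SE 0.09, adjusted p = 0.015). This call was lost when LNA Control replicate 2 was left out (adjusted p = 0.067) or LNA Malat1 replicate 3, the lowest library (log2 fold change −0.23, adjusted p = 0.067).

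H1f4 (chr13:23620629-23622558), which encodes H1.4, had the highest counts of the replication-dependent genes, 434, 457 and 376 with LNA Control and 375, 413 and 353 with LNA Malat1. Its groups overlapped, and the log2 fold change of −0.15 (SE 0.08) did not pass the test (adjusted p = 0.18). Without LNA Control replicate 3 it was −0.23 (adjusted p = 0.029). H1f4 and H2bc6 share 496 bases of annotated exon on the same strand, where reads count for neither gene under the counting the study describes. The remaining gene, H1f1, had at most 2 counts in any library. The 4 genes together had 938, 1013 and 872 normalized counts with LNA Control and 801, 847 and 741 with LNA Malat1, or 84.6% of the control level, with no overlap.

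H2A and H2B form the dimers that flank the tetramer of H3 and H4 in the nucleosome. Of the 7 replication-dependent H2B genes, all tested, 2 fell, 3 others had log2 fold changes below 0 and 2 above 0. H2bc3 (chr13:23746734-23747241) had 89, 94 and 86 normalized counts with LNA Control and 69, 66 and 71 with LNA Malat1. The groups were separated, and H2bc3 fell (−0.38 ± 0.11 SE on the log2 scale, limma adjusted p = 0.02), but adjusted p was 0.072 when LNA Control replicate 2 was left out, 0.057 for LNA Malat1 replicate 1 and 0.067 for replicate 2. H2bc9 (chr13:23541714-23543392) had 61, 59 and 60 with LNA Control and 47, 46 and 41 with LNA Malat1. Its log2 fold change of −0.42 (SE 0.14, adjusted p = 0.036) was the largest of the 28, and with any one library left out adjusted p was above 0.05 (0.057 to 0.11).

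H2bc21 (chr3:96221119-96223738) was the H2B gene with the highest counts and had the highest log2 fold change of the 28 genes, with 172, 154 and 159 with LNA Control and 181, 170 and 203 with LNA Malat1. The groups overlapped, and the log2 fold change of 0.19 (SE 0.09) did not pass the test (adjusted p = 0.12). The place of H2bc21 in the replication-dependent class rests on its symbol and is uncertain. Its transcript has a poly(A) signal, and no stem-loop was found in the 2192 bases annotated after the stop codon. H2bc4 (log2 fold change −0.03, SE 0.12) and H2bc6 (0.04, SE 0.13) were near 0, and the sign of both depended on the settings. The 7 H2B genes together were at 94.7% of the control level, with 604, 618 and 588 normalized counts with LNA Control and 599, 550 and 565 with LNA Malat1, and overlapped.

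All 5 of the tested H2A genes had log2 fold changes below 0 (median −0.28), and none passed the test. H2ac20 (chr3:96220361-96220880) had 163, 167 and 139 normalized counts with LNA Control and 132, 135 and 127 with LNA Malat1. The groups did not overlap (log2 fold change −0.25 ± 0.09 SE, limma adjusted p = 0.059), and adjusted p was 0.015 without LNA Control replicate 3 and 0.047 with recomputed scaling factors. H2ac8 (70, 62 and 60 against 51, 52 and 49) and H2ac10 (39, 48 and 44 against 37, 37 and 25) did not overlap either, with log2 fold changes of −0.33 (SE 0.13, adjusted p = 0.08) and −0.41 (SE 0.19, adjusted p = 0.13). Without LNA Malat1 replicate 3, H2ac10 was at −0.23 (adjusted p = 0.41). The 8 H2A genes together were at 83.5% of the control level, with 357, 395 and 341 normalized counts with LNA Control and 308, 315 and 290 with LNA Malat1.

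H3 and H4 form the tetramer at the centre of the nucleosome. Of the 5 tested replication-dependent H3 genes, H3c6 (chr13:23561534-23562369) fell, from 84, 96 and 85 normalized counts to 70, 71 and 70 after LNA Malat1. The groups did not overlap (log2 fold change −0.32 ± 0.11 SE, limma adjusted p = 0.045). This call lay near the threshold and was lost when LNA Control replicate 2 (adjusted p = 0.15) or 3 (0.051) or LNA Malat1 replicate 1 (0.11), 2 (0.095) or 3 (0.1) was left out. The H3 genes together were at 87.6% of the control level (270, 299 and 285 against 242, 267 and 239).

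The 4 genes of histone H4 had log2 fold changes between −0.21 and −0.14, and none passed the test. H4c14 (chr3:96261682-96263311) had 204, 189 and 193 normalized counts with LNA Control and 177, 189 and 167 with LNA Malat1, and H4c4 (chr13:23581598-23582735) had 146, 136 and 153 and 124, 139 and 132. Both pairs of groups overlapped or met, with log2 fold changes of −0.14 (SE 0.08, limma adjusted p = 0.19) and −0.14 (SE 0.09, adjusted p = 0.26). H4c3 and H4c8 did not overlap between groups but had adjusted p-values of 0.31 and 0.24. Together the H4 genes were at 89.9% of the control level (478, 456 and 481 against 421, 446 and 405).

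**Figure D2:**
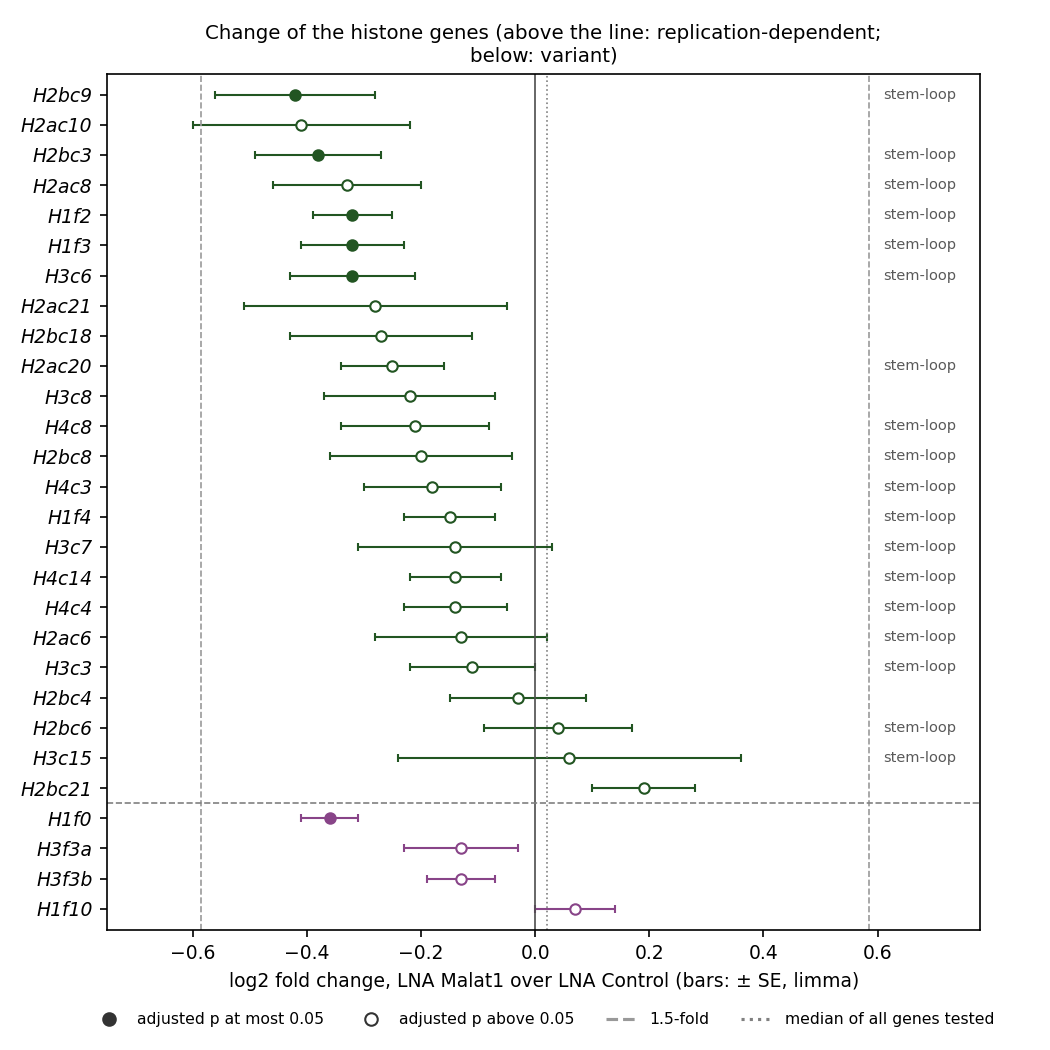
Log2 fold change of LNA Malat1 over LNA Control with its SE for the 28 histone genes tested, sorted within the replication-dependent (green) and the variant genes (purple). Filled points had a limma adjusted p of at most 0.05, the dotted line is the median of all genes (0.02), dashed lines mark 1.5-fold, and genes with the stem-loop are marked. Of the 28 points, 24 lie below 0 and none reaches 1.5-fold.

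Among the variant genes, H1f0 (chr15:79028450-79030504), which encodes H1.0, a linker histone known from cells that divide slowly or have differentiated, fell. It had 715, 728 and 680 normalized counts with LNA Control and 536, 572 and 547 with LNA Malat1. The groups lay far apart relative to their spread, and the level in LNA Malat1 was 78% of the control level over 3 libraries each (log2 fold change −0.36 ± 0.05 SE, limma adjusted p = 0.00033). Over the alternatives its log2 fold change ranged from −0.39 to −0.30, and adjusted p from 0.00016 to 0.0052.

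H3f3a and H3f3b both encode H3.3, which replaces H3 in nucleosomes outside of replication. H3f3b (chr11:116021912-116027962) had 442, 440 and 397 normalized counts with LNA Control and 377, 406 and 383 with LNA Malat1, and H3f3a (chr1:180800832-180813943) had 103, 108 and 98 and 90, 100 and 92. The groups of both overlapped, and both had a log2 fold change of −0.13 (SE 0.06 and 0.10, limma adjusted p = 0.13 and 0.35). Without LNA Control replicate 3, H3f3b had a log2 fold change of −0.18 (adjusted p = 0.037). H1f10 (chr6:87980421-87981637), which encodes the linker histone H1.10, had 224, 239 and 216 with LNA Control and 253, 227 and 231 with LNA Malat1 and overlapped (log2 fold change 0.07 ± 0.07 SE, adjusted p = 0.52). H1f8, the linker histone of oocytes, had 0 with LNA Control and 1, 1 and 3 with LNA Malat1, which is too few to compare.

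Between the classes, the difference in summed level was small, but the fall of the variant sum lay mostly in H1f0. The variant class here holds only H1 and H3 genes, since H2A variants such as H2aj have other names and are described further below. The replication-dependent genes summed to 2647, 2781 and 2567 normalized counts with LNA Control and to 2371, 2425 and 2240 with LNA Malat1, or 88% of the control level. The variant genes summed to 1484, 1515 and 1391 and to 1257, 1306 and 1256, or 87%. Neither sum overlapped between groups. Without H1f0 the variant sums were 769, 787 and 711 with LNA Control and 721, 734 and 709 with LNA Malat1, and overlapped. The replication-dependent sum divided by the variant sum was 1.78, 1.84 and 1.85 with LNA Control and 1.89, 1.86 and 1.78 with LNA Malat1, and the groups overlapped. The median log2 fold change was −0.21 for the 24 replication-dependent genes tested, of which 21 were below 0 and 5 passed, and −0.13 for the 4 variant genes, of which 3 were below 0 and 1 passed. The difference between the classes was not tested. The summed level of the 5 fibroblast genes was also lower in LNA Malat1, at 83.9% of the control level, and its part in the result was not tested.

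**Figure D3:**
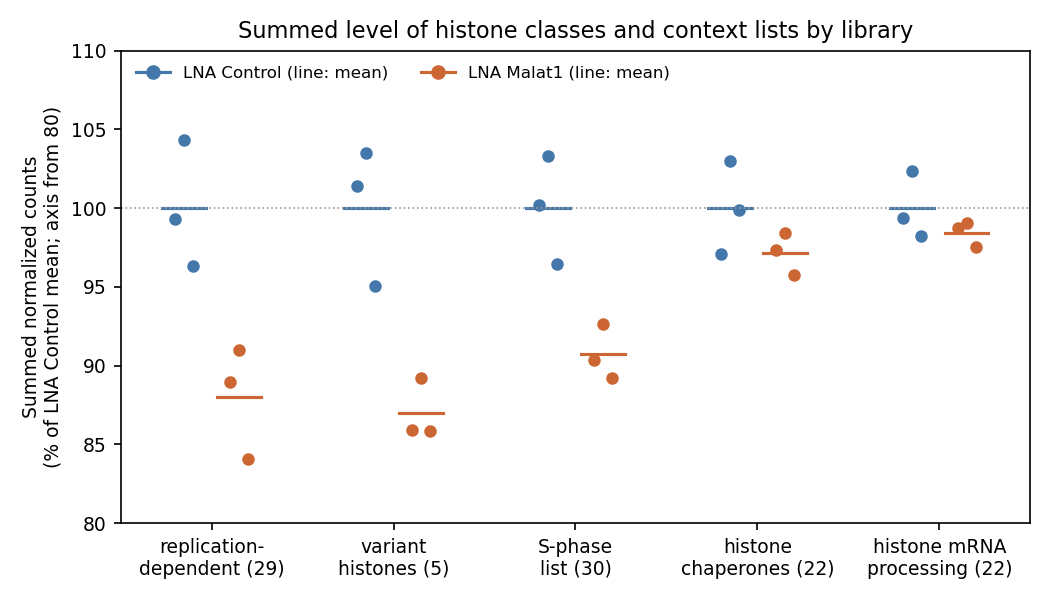
Summed normalized counts of the histone classes and of lists of related genes, as a percentage of the LNA Control mean, with 1 point per library (axis from 80). The LNA Malat1 points of the replication-dependent, variant and S-phase genes lie below the LNA Control points, at means of 88%, 87% and 90.7%, and those of the chaperone and processing lists, at 97.2% and 98.4%, overlap with them.

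Several H2A and H2B genes lie head to head, with a short shared stretch between their starts, and 3 such pairs had less than 500 bases between them. This comparison was chosen after the values were seen and was not tested. For H2ac20 and H2bc21 (238 bases apart), the H2B count divided by the H2A count was 1.06, 0.92 and 1.14 with LNA Control and 1.37, 1.26 and 1.6 with LNA Malat1, without overlap (difference of the log2 ratio 0.44). The promoter printed above spans the stretch between them, and neither gene passed the test on its own (limma adjusted p = 0.059 and 0.12). For H2ac8 and H2bc8 (175 bases apart) the ratio was 0.94, 1.19 and 0.85 with LNA Control and 1.25, 0.94 and 1.06 with LNA Malat1. For H2ac6 and H2bc4 (250 bases apart) it was 1.62, 1.27 and 1.56 and 1.96, 1.56 and 1.28, and both overlapped. H2bc21 differs from H2ac20 in its annotated transcript, with a poly(A) signal and no match to the stem-loop pattern.

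**Figure D4:**
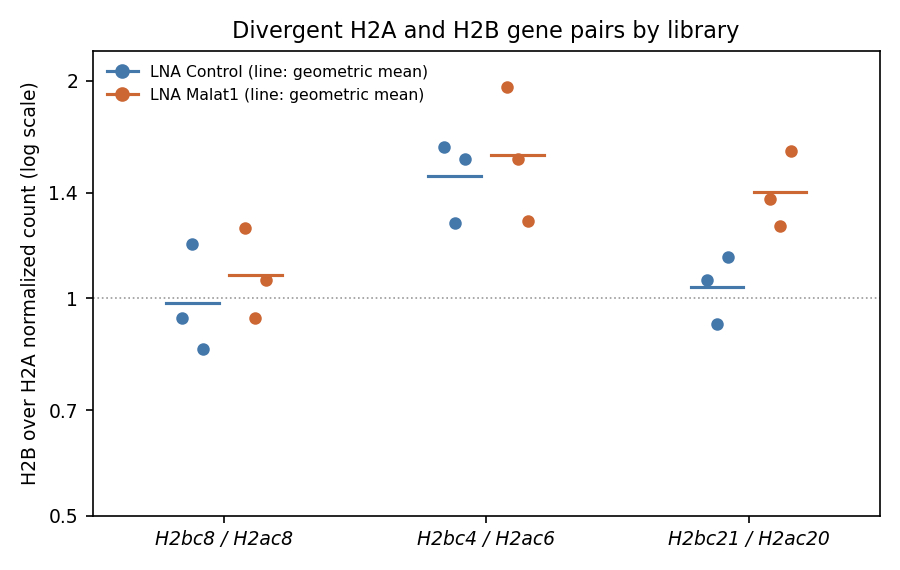
Ratio of the H2B to the H2A normalized count (log scale) in the 3 head-to-head pairs, with 1 point per library and the geometric mean of each group as a line. The ratio of H2bc21 to H2ac20 lies between 0.92 and 1.14 for LNA Control and between 1.26 and 1.6 for LNA Malat1, and the other pairs overlap.

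Within the replication-dependent class, the 18 tested genes with the stem-loop had a median log2 fold change of −0.19 (16 below 0, 5 passed) and the 6 without it −0.25 (5 below 0, 0 passed). These 6 include H2ac10, H2ac21 and H2bc18, where too few bases are annotated after the stop codon for the search to find it. The 18 genes of the large cluster on chromosome 13 had a median of −0.21 (17 below 0, 5 passed), and the 6 on chromosome 3 had −0.19 (4 below 0, 0 passed). The families H1, H2A, H2B, H3 and H4 had medians of −0.32, −0.28, −0.20, −0.14 and −0.16. These differences were not tested. Across the 28 genes, the log2 fold change correlated weakly with the log2 mean count (Pearson r = 0.05), the log2 exonic length (0.33) and the share of unique sequence (0.28), in genes that share libraries. Of the 29 genes, 27 are a single stretch of exon, and the 270 other tested protein-coding genes of this kind had a median log2 fold change of 0.05, with 40.4% below 0.

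The levels of the genes can be compared only per length, and only for the reads that could be assigned. Per kilobase of exon, the mean normalized count in LNA Control was highest for H1f0 (344.4), H2ac20 (300.6), H1f4 (218.8), H1f2 (201.7), H1f10 (186) and H2bc3 (176.5). The control libraries of H1f4 (194.8 to 236.8), H1f2 (189.1 to 221.2) and H1f10 (177.5 to 196.4) overlapped in this scale, as did those of H1f10 and H2bc3 (169.3 to 185). H3f3b had 143.3, H4c4 had 127.4 and H3f3a had 29.4. H1f3 (27.3) was also low, with an annotated exon of 7425 bases.

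Histone genes are near copies of each other, and reads of 75 bases that matched several places or several genes were not counted. Of all 75-base stretches of a gene's transcripts, a median of 65.6% were unique in the replication-dependent genes (0.0% in H2bc18 to 100.0% in H1f1, H2bc21 and H4c14), and 95.5% in the variant genes. A stretch was not unique if a transcript of any other annotated gene held it on either strand, also a gene over the same place. The shares thus do not separate near copies from overlapping genes, which lie over H2bc18 and H2ac21 on the opposite strand. The values of genes such as H2ac10 (13.2%), H3c15 (37.4%), H2ac21 (37.6%) and H3c6 (40.6%) may thus rest on part of their sequence and are uncertain. Exons of another annotated gene lie over those of 15 of the 36 genes, in H2bc18 over all of it, and the sources do not say whether strand was used in the counting. The annotation holds 82 protein-coding genes with such histone names, of which 37 have no row used here, and their median share of unique stretches was 27.4%.

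The 8 histone genes below the minimum mean were H1f1, H2ac4, H2ac7, H2ac15 and H3c4 of the replication-dependent class, the testis-specific H1f6 and H2ac1, and H1f8. Their values were between 0 and 7 in all libraries, so a change was not detectable at this depth. All 36 genes together made up 0.0845%, 0.0874% and 0.0821% of the normalized counts with LNA Control and 0.0763%, 0.0784% and 0.0735% with LNA Malat1, without overlap.

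Beside the histone genes, most genes of the S-phase list also had lower values in LNA Malat1. Of 30 genes for DNA replication and nucleotide supply, 26 had log2 fold changes below 0 (median −0.11), against 47.2% of all genes (median 0.02). At a limma adjusted p of at most 0.05, 11 were lower and 0 were higher, against 14.0% and 14.3% of all genes. The genes of the list had means of 198.7 to 1717.2, and lower values were more common at such levels. Of all 5706 genes with means of 100 to below 500, 57.9% were below 0, and 1194 were lower and 694 higher at that adjusted p. Of the 3205 with means of at least 500, 62.5% were below 0, and 727 were lower and 288 higher. Thymidine kinase 1 (Tk1) had 291, 247 and 267 normalized counts with LNA Control and 181, 181 and 220 with LNA Malat1 (log2 fold change −0.47 ± 0.09 SE, adjusted p = 0.002). The catalytic subunit of DNA polymerase alpha (Pola1) had a log2 fold change of −0.39 (SE 0.08, adjusted p = 0.0023). The list summed to 22634, 23336 and 21779 with LNA Control and to 20401, 20925 and 20144 with LNA Malat1, or 90.7% of the control level.

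Of the 22 genes of histone mRNA production and processing, 3 were lower and 1 was higher, shares no larger than those over all genes (14.0% and 14.3%), and the median log2 fold change was −0.05. Lsm11, a subunit of the U7 ribonucleoprotein, had 191, 167 and 158 normalized counts with LNA Control and 117, 119 and 116 with LNA Malat1 (a change of −0.54 ± 0.09 SE on the log2 scale, limma adjusted p = 0.00071). The transcription factor Yy1 was also lower (−0.50 ± 0.06 SE, adjusted p = 6.1e-05). Casp8ap2, a protein of histone locus bodies, had 719, 1071 and 1250 with LNA Control and 1437, 1415 and 1329 with LNA Malat1, with LNA Control replicate 1 far below the rest (log2 fold change 0.50 ± 0.14 SE, adjusted p = 0.021). When that library was left out, the log2 fold change was 0.27 (adjusted p = 0.0038). The adjusted p was 0.052 when LNA Control replicate 2 was left out and 0.066 to 0.097 without single LNA Malat1 libraries, and 0.087 with replicates 1 and 3 of LNA Malat1 merged. Slbp, named for its role after its values were seen, had 612, 604 and 575 with LNA Control and 573, 612 and 584 with LNA Malat1 (log2 fold change −0.02 ± 0.05 SE, adjusted p = 0.83).

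Histone chaperones carry histones to and from DNA. Of 22 such genes, 5 were lower and 1 was higher, against 14.0% and 14.3% of all genes, and the median log2 fold change was −0.07. The only one called, against 10.9% of all genes, was Supt6, a chaperone of transcribed chromatin, with 1290, 1328 and 1220 normalized counts with LNA Control and 848, 815 and 768 with LNA Malat1 (a change of −0.66 ± 0.06 SE on the log2 scale, limma adjusted p = 5.1e-06). Ubn1, of the HIRA complex that deposits H3.3, was lower (−0.32 ± 0.06 SE, adjusted p = 0.00097). Atrx, which deposits H3.3 with Daxx, was higher (0.50 ± 0.17 SE, adjusted p = 0.044), but LNA Control replicate 1 (1629) lay far below replicates 2 (2691) and 3 (3125). Without that library the log2 fold change was 0.22 (adjusted p = 0.013). The adjusted p was 0.074 without LNA Control replicate 2, 0.13 to 0.14 without single LNA Malat1 libraries, and 0.14 with replicates 1 and 3 of LNA Malat1 merged.

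Histone genes with other names gave 13 rows, of which 11 were tested and 10 had log2 fold changes below 0 (median −0.12), with 1 lower and 1 higher at the adjusted p, against 14.0% and 14.3% of all genes. H2bu1-ps, named as an H2B pseudogene, had 70, 70 and 64 normalized counts with LNA Control and 48, 48 and 42 with LNA Malat1 (a change of −0.56 ± 0.13 SE on the log2 scale, limma adjusted p = 0.0081). H2aj, an H2A variant, was higher, with 224, 194 and 197 with LNA Control and 245, 253 and 222 with LNA Malat1, which overlapped (log2 fold change 0.23 ± 0.08 SE, adjusted p = 0.048). This call was lost when LNA Control replicate 2 or 3 was left out (adjusted p = 0.16 and 0.1) or LNA Malat1 replicate 1 or 2 (0.15 and 0.17), and with replicates 1 and 3 of LNA Malat1 merged (0.076). None of the other 9 passed the test, and among them were H2ax, H2aw and H4f16, which carry the stem-loop, with log2 fold changes of −0.00, −0.17 and −0.14.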

How the data were processed

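RNA of 6 libraries of HL-1 cells was made with a stranded total RNA kit, without selection for poly(A), and sequenced as single-end reads of 75 bases. Reads were trimmed by the authors with Trimmomatic 0.39, mapped to mm10 with STAR 2.7.7a (genes of Ensembl release 101), and counted reads per gene with featureCounts 1.6.5 without reads that matched several genes or places, followed by normalization with DESeq2 1.30.0. The values the authors deposited are these normalized counts rounded to whole numbers (a score, not raw counts), so no count test was used. Columns of the authors' own comparison (fold changes and p-values) were not used.

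Genes with a mean of at least 5 were tested with limma 3.58.1 (R 4.3.3; lmFit, eBayes with trend, two-sided) on log2(normalized count + 1), which understates changes of low genes, with Benjamini-Hochberg adjustment over 15650 genes. Genes called changed at least 1.5-fold with adjusted p at or below 0.05. Library depth was estimated from the steps of the rounded values. Exon lengths, stem-loops and unique stretches came from GENCODE M21 (mm10), where all 36 genes have the coordinates of the table, and promoters from RefSeq (GRCm38.p6).

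The histone genes, the lists and the tests were chosen with earlier results of these data known. Named were Malat1, every histone gene called or, per class, with the 3 largest changes in each direction at an adjusted p of at most 0.05, the 10 replication-dependent genes and the variant genes with the highest means, the 3 largest changes per list at that adjusted p, the cell type markers, and genes of the same pair or sequence group. H2ac10, H2bc18, H2ac21, H3c15 and Slbp were named after their values were seen. 1 gene that this rule would name is not reported here. Same-numbered libraries of the groups had deviations that correlated by 0.086, 0.182 and 0.083 over 10490 genes, so the numbers were not taken as pairs. The alternatives were pseudocounts of 0.1 and 5, recomputed median-of-ratios factors, quantile normalization, equal library totals, no filter, a mean of at least 50, a fold change of at least 2, each library left out, LNA Malat1 replicates 1 and 3 as 1 sample, and the replicate number as a block.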

Additional observations from a re-analysis of the deposited data

How the results depend on the processing

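The number of histone genes that fell at the adjusted p of 0.05 was 6 in the test reported and 2 to 7 with single libraries left out, and the number called was 0 except for 1 with quantile normalization, the replication-dependent H2ac10 (log2 fold change −0.63, limma adjusted p = 0.037). The median log2 fold change of the replication-dependent genes was −0.29 to −0.15 over the settings, and that of all genes −0.03 to 0.07. The number of all genes called, 1709 in the test reported, was 666 with a mean of at least 50, 841 with a fold change of at least 2 and 1179 to 2054 with single libraries left out. With single libraries left out, 0 to 2 genes were called in the processing list, 1 to 2 in the chaperone list and 0 to 1 among the other histone genes. With a fold change of at least 2 the chaperone list had 0 called, and with quantile normalization the other histone genes had 1. Log2 fold changes of genes not called changed sign for H2bc4 (0.00 with equal library totals, −0.12 to 0.06 without single libraries), H2bc6 (−0.03 with quantile normalization, −0.08 to 0.14 without single libraries) and H3c15 (−0.24 with quantile normalization, −0.27 to 0.23 without single libraries). With the replicate block, 4 histone genes passed (H1f0, H1f2, H1f3 and H2bc3), and H2bc9 and H3c6 did not (adjusted p just above 0.05 and 0.057). With replicates 1 and 3 of LNA Malat1 merged, the same 4 passed and 1223 of all genes were called. Malat1 stayed lower in every setting, with log2 fold changes of −0.88 to −0.75 without single libraries. The causes of these changes were not tested. Depth limits genes with few counts, and reads lost to near-identical copies cannot be recovered from the table.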

Other observations

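Of the 5 histone-named genes of other biotypes, 2 had enough counts to test. H3f4, annotated as an unprocessed pseudogene, had 22, 24 and 25 normalized counts with LNA Control and 11, 17 and 16 with LNA Malat1. Its groups did not overlap (log2 fold change −0.68 ± 0.24 SE, limma adjusted p = 0.056). H3f3aos, a transcript antisense to H3f3a, had 18, 21 and 28 with LNA Control and 32, 34 and 29 with LNA Malat1, also without overlap (log2 fold change 0.51 ± 0.21 SE, adjusted p = 0.098).

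Single libraries stood out within their groups. LNA Control replicate 3 was the lowest control library in 15 of the 28 histone genes tested (53.6%) and in 32.9% of the 12857 genes with means of 10 to below 1000. LNA Malat1 replicate 3 was the lowest of its group in 15 of the 28 (53.6%) and in 29.8% of those genes.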
